A study of Aptenodytes patagonicus with 3 samples.

Results

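The proteasome genes described here are those whose symbol begins with PSM, a letter from A to G and a number, as the annotation of the Affymetrix Chicken Genome array names them. They are read by 57 of the 36813 probe sets on the array, for 37 of the 12913 genes that at least 1 probe set names alone. The rule uses the symbol and no measured value. By symbol they fall into 7 genes of the 20S alpha ring (PSMA, 9 probe sets), 6 of the 20S beta ring (PSMB, 9 probe sets), 6 in the family of the 19S ATPases (PSMC, 7 probe sets), 11 of the other 19S genes (PSMD, 18 probe sets) and 7 of the activators and assembly factors (PSME, PSMF and PSMG, 14 probe sets). One of them, PSMC3IP, matches by its spelling alone and encodes a protein of meiotic recombination, not a proteasome subunit. A further 6 probe sets name PSMD4, PSMD6 or PSME3 together with another gene and were left out, so that PSMD4, the ubiquitin receptor of the cap, has no probe set of its own here.

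Muscle RNA came from 3 juvenile king penguins (*Aptenodytes patagonicus*) of the artificially acclimated group (AA), 1 array per bird, taken by biopsy under anaesthesia from the pectoralis, the main swimming muscle. The birds were caught in the wild before they had ever entered the sea, moulted in captivity, and were then immersed 10 times for 5 hours, at intervals of 2 days, in water at 8 °C. By the labels bird 2 was a male and birds 1 and 3 were females, and sex is the single labelled difference between the arrays. The male is 1 bird, so sex and individual cannot be told apart. The arrays of never-immersed and sea-acclimatized penguins were not analysed here, and no value below measures an effect of immersion.

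The proteasome is the large protease that degrades proteins tagged with ubiquitin. Its barrel-shaped core, the 20S particle, is a stack of rings, with alpha subunits in the outer rings, which gate the entrance, and beta subunits in the inner rings, some of which cut the substrate. The 19S cap binds ubiquitin chains, removes them, and unfolds the substrate with a ring of ATPases that feeds it into the core. Other activators can take the place of the cap, and dedicated chaperones guide assembly. In skeletal muscle the proteasome carries much of the turnover of contractile proteins, and in mammals the factor NFE2L1 raises transcription of nearly all subunit genes together when the protease is overloaded.

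Signals are log2 values, normalized by the authors so that the arrays hold nearly the same distribution, with a median of 8.63 in the male and 8.62 in both females. Penguin RNA bound to chicken probes, so a signal also depends on how well each probe matches, and values are compared between birds within a probe set. Of the 57 proteasome probe sets, 19 have names ending in _s_at or _x_at, a type that can bind several transcripts. They include the only probe sets of PSMA2, PSMA3, PSMC2, PSMC3IP, PSMC6, PSMD3, PSMD9, PSMD12 and PSMF1. The brightest probe sets of PSMC3, PSMD2, PSMD7 and PSME3 are of this type too. In the fit of male minus females with limma, which borrows spread across probe sets, 0 of the 36813 probe sets passed an adjusted p of 0.05 (0%), and 3600 had an unadjusted p under 0.05. The fit had 1 residual degree of freedom, and the lone male was taken to vary like the females. The skeletal actin gene ACTA1 stood at the highest value of every array, 15.27, in each bird.

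Proteasome genes lay lower in the male than in both females more often than probe sets at large. The male was below both females on 36 of the 57 probe sets (63.2%), against 31.1% of all probe sets, and above both on 13 of 57 (22.8%), against 41.4% of all. On the brightest probe set of each gene, the male was the lowest bird for 27 of 37 genes (73%), against 32.5% of all genes. The median difference of the male from the mean of the females was -0.24 log2 units over the 57 probe sets and 0.05 over all, and -0.42 over the 37 genes against 0.04 over all genes. A difference below -0.5 was found on 19 of 57 probe sets (33.3%), against 8.5% of all, and a difference above 0.5 on 0 of 57, against 5.01% of all. None of the 57 passed the limma test after adjustment over all probe sets, where their adjusted p lay between 0.198 and 0.992. At an unadjusted p under 0.05, 12 of the 57 were lower in the male (21.1%, against 6.32% of all probe sets) and 0 were higher (against 3.46%). The probe sets of 1 complex in the same 3 birds are not independent replicates, so these counts describe the birds and carry no test. With bird 1 as the only female the median over the 57 was -0.20, and with bird 3 as the only female it was -0.27, beside 0.05 and 0.04 over all probe sets.

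**Figure D1:**
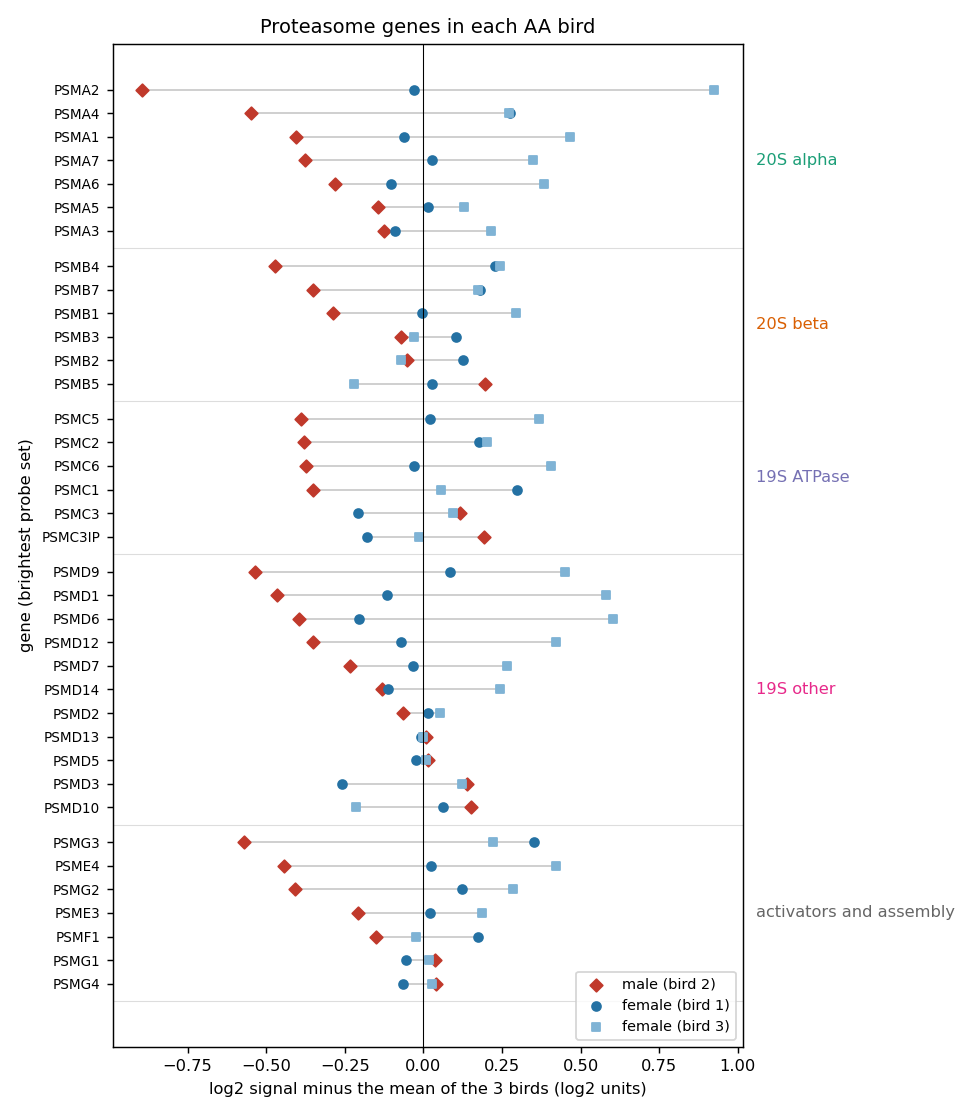
Log2 signal of each of the 37 proteasome genes on its brightest probe set, as the deviation from the mean of the 3 birds (horizontal axis, log2 units), with 1 point per bird and the genes grouped by class. The male (red diamonds) is the leftmost point for 27 of 37 genes, among them all 7 of the 20S alpha ring.

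The background for each class described from here on is that of the whole array. There the male was lowest on 31.1% of all probe sets (median difference 0.05) and for 32.5% of all genes (median 0.04). In the alpha ring the male was lowest on 8 of 9 probe sets, with a median difference of -0.42. On the brightest probe set of each gene, the male lay below both females for 7 of 7 genes, with a median difference of -0.56 and a range of -1.34 to -0.19. PSMA2 read 9.40 in the male and 10.26 and 11.22 in females 1 and 3. Its signal in the male was 0.394 times the geometric mean of the females (difference -1.34, limma standard error 0.37, adjusted p = 0.276 from limma), and the females themselves were 0.95 apart. PSMA4 read 11.67 in the male and 12.49 in each of the females, a difference of -0.82 (limma standard error 0.23, adjusted p = 0.286). Here the females were nearly equal, and the male stood alone. PSMA1 read 11.29 in the male and 11.64 and 12.17 in females 1 and 3. PSMA7 read 11.83 in the male and 12.23 and 12.56 in the females. For both genes the male lay farther below bird 3 than below bird 1. The smaller differences of the class were those of PSMA6 (-0.42), PSMA5 (-0.21) and PSMA3 (-0.19). The exception was the dimmer probe set of PSMA5, which read 9.39 in the male and 9.19 and 9.32 in the females. PSMA3 read 10.54 in the male, next to 10.57 in female 1 and below 10.88 in female 3, so that the male and bird 1 differed by less than the females did.

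In the beta ring the pattern was mixed, and the size of the median depended on the probe sets read. On the brightest probe set of each gene, the male was below both females for 4 of 6 genes, with a median of -0.27, and bird 3 was the lowest for the remaining genes, PSMB2 and PSMB5. Over all 9 probe sets the male was lowest on 5, with a median of -0.11, which was -0.042 without bird 1. PSMB4, a structural subunit without a protease site, read 8.78 in the male and 9.48 and 9.49 in females 1 and 3 (difference -0.71, limma standard error 0.23, adjusted p = 0.350). PSMB7, the subunit with trypsin-like activity, read 10.38 in the male and 10.91 and 10.90 in the females. In both genes the females were nearly equal and the male was apart. PSMB1 read 11.53 in the male and 11.82 and 12.12 in the females, which spread it about evenly over the birds. PSMB3 read 12.08 in the male and 12.26 and 12.12 in the females, and PSMB2 read 8.91 in the male and 9.09 and 8.89 in the females. In these 2 genes the difference of the male, -0.11 and -0.08, was smaller than that between the females. PSMB5, the subunit with chymotrypsin-like activity, went the other way, with 8.79 in the male and 8.62 and 8.37 in the females (0.29). On its other probe set, of a type that can bind several transcripts, PSMB5 read 8.30 in the male and 8.44 and 8.25 in the females. PSMB5 and PSMB7, the catalytic subunits with a measured gene, thus lay on opposite sides on the brightest probe sets and on the same side on the dimmer ones, where PSMB5 had -0.05 and PSMB7 -0.24. No probe set names PSMB6, the remaining catalytic subunit, or the inducible subunits PSMB8, PSMB9 and PSMB10.

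The ATPases that drive unfolding resembled the alpha ring, apart from PSMC3. With PSMC3IP set aside, the male was lowest for 4 of 5 genes, with a median of -0.56. PSMC2 read 12.05 in the male and 12.61 and 12.63 in females 1 and 3, so the females agreed and the male was 0.57 below them. PSMC5 read 11.10 in the male and 11.51 and 11.86 in the females, PSMC6 read 11.24 in the male and 11.59 and 12.02 in the females, and PSMC1 read 8.31 in the male and 8.95 and 8.71 in the females. The differences of these 4 genes were alike, from -0.58 to -0.53. PSMC3 had the widest disagreement between probe sets of any proteasome gene. On the brighter of its probe sets, which can bind several transcripts, it read 8.96 in the male and 8.63 and 8.94 in the females. On the dimmer, not of that type, it read 7.78 in the male and 8.93 and 9.03 in the females. The mean signals of these probe sets were 8.84 and 8.58. The dimmer one gave the smallest p of the 57 probe sets (difference -1.20, limma standard error 0.23, adjusted p = 0.198), while the brighter one put the male on top. PSMC3IP, the meiotic gene, read 9.23 in the male and 8.86 and 9.02 in the females.

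Among the other genes of the 19S cap, the male was lowest for 7 of 11 on the brightest probe set, with a median of -0.20 and a range of -0.80 to 0.23. Over all 18 probe sets it was lowest on 9, with a median of -0.08. Without the probe sets whose names end in _s_at or _x_at, which can bind several transcripts, the median was -0.0059. The scaffold of the base is formed by PSMD1 and PSMD2. PSMD1 read 11.64 in the male and 11.99 and 12.68 in females 1 and 3, and its difference of -0.70 was matched by a gap of 0.70 between the females. PSMD2 read 10.47 in the male and 10.55 and 10.59 in the females, a difference of -0.10. These partners in the cap thus differed in size, with the male farther from bird 1 on PSMD1 than on PSMD2.
The lid, which holds the enzyme that strips ubiquitin chains, had 6 measured genes, with the male lowest in 4. PSMD6 read 9.80 in the male and 9.99 and 10.80 in females 1 and 3, PSMD12 read 10.18 in the male and 10.46 and 10.95 in the females, and PSMD7 read 12.03 in the male and 12.24 and 12.53 in the females. PSMD14, the deubiquitinating enzyme itself, read 10.87 in the male and 10.89 and 11.25 in the females. Its dimmer probe set had the male highest, with 8.08 in the male and 7.94 and 7.74 in the females. On the brightest probe sets of all 4 of these genes, bird 3 was the highest, and the male was closer to bird 1 than the females were to each other. PSMD13 was the steadiest of the proteasome genes on its brightest probe set, with 10.45 in the male and 10.44 in each of the females (SD 0.0072, n = 3). Its other probe sets were less level, with SDs of 0.16, 0.13 and 0.12. The brightest of these read 9.44 in the male and 9.76 and 9.58 in the females, while on the dimmer ones the male was not the lowest. PSMD3 read 9.78 in the male and 9.38 and 9.76 in the females, where bird 1 and not the male stood apart.
PSMD5, PSMD9 and PSMD10 are not parts of the finished cap but chaperones of its base. PSMD9 read 9.63 in the male and 10.25 and 10.62 in females 1 and 3 (difference -0.80, limma standard error 0.25, adjusted p = 0.341). PSMD5 read 8.57 in the male and 8.53 and 8.57 in the females (SD 0.021, n = 3), and PSMD10 read 9.22 in the male and 9.13 and 8.85 in the females. The 3 chaperones of 1 assembly line thus showed a low male, level birds and a low bird 3 in turn.

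Of the alternative caps, PSME4 (PA200) is a large nuclear activator, and PSME3 (PA28 gamma) forms a ring on the core that acts without ubiquitin. PSMF1 (PI31) is not a cap and was named as an inhibitor of the core. On the brightest probe set of each gene, the male was lowest for all 3. PSME4 read 11.35 in the male and 11.82 and 12.21 in females 1 and 3 (difference -0.67, limma standard error 0.26, adjusted p = 0.449). PSME3 read 11.19 in the male and 11.42 and 11.59 in the females, and PSMF1 read 8.73 in the male and 9.06 and 8.86 in the females. The subunits PSME1 and PSME2 of the activator that interferon induces in mammals are named by no probe set of the array's annotation.
The factors PSMG1 to PSMG4 guide assembly of the alpha ring, PSMG1 with PSMG2 and PSMG3 with PSMG4. Within each pair the partners differed. PSMG2 read 9.28 in the male and 9.81 and 9.97 in females 1 and 3, whereas PSMG1 read 10.31 in the male and 10.22 and 10.29 in the females (SD 0.050, n = 3). PSMG3 read 8.78 in the male and 9.70 and 9.57 in the females (difference -0.86, limma standard error 0.23, adjusted p = 0.275), whereas PSMG4 read 9.95 in the male and 9.84 and 9.93 in the females. On these probe sets 1 gene of each pair was lowest in the male. In the other, PSMG1 or PSMG4, the male was nearly level with bird 3, at 0.02 and 0.01 above it.

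Several probe sets read 15 of the 37 genes, and they did not always give the same direction. The male lay on 1 side of the mean of the females on all probe sets for 6 of these 15 genes (40%), against 37.5% of all genes with 2 or more probe sets, so the proteasome genes were no more uniform than others in this respect. The 6 were PSMA6, PSMB7, PSMD2, PSMD5, PSMD7 and PSME3. All 3 probe sets that name PSME3 alone had the male lowest, with differences of -0.31, -0.32 and -0.24 from the brightest to the dimmest. Both of PSMD7 did as well, with -0.35 and -0.46. A further probe set, left out because it names PSME3 together with AOC3, had the male highest. It read 10.70 in the male and 10.67 and 10.32 in females 1 and 3. The other left-out probe sets were divided. The male was lowest on that of PSMD6 with CCDC50, while the probe sets of PSMD4 did not all give the male the same place.
In 4 genes, PSMC3, PSMG3, PSME4 and PSMG4, the differences had opposite signs and lay over 0.5 apart. PSMG3 read 8.21 in the male and 7.37 and 8.27 in females 1 and 3 on its dimmer probe set, where bird 1 was the low one. PSME4 read 8.58 in the male and 9.23 and 9.20 in the females on its middle probe set, with nearly the same difference (-0.63) as on the brightest (-0.67), and 6.999 in the male and 7.18 and 6.75 in the females on the dimmest. PSMG4 read 9.86 in the male and 9.69 and 9.50 in the females on its middle probe set. On its dimmest it read 7.56 in the male, against 8.06 and 7.60 in the females. On these genes the order of the birds depended on the probe set read.
The male was lowest more often, by count, among the bright proteasome probe sets than among the dim ones. In the brightest 25% of the array by mean signal, which holds 31 of the 57, the male was lowest on 25 (80.6%, against 31.2% of all probe sets there), with a median difference of -0.42. In the next 25% down this was 7 of 12 (58.3%, against 30.4% of all there), and in the dimmer ones it was 2 of 8 and 2 of 6, against 31.5% of all in each. The dimmer probe set of PSMC3, with a difference of -1.20, lay among those 8. Across the 57 probe sets Pearson's r between mean signal and the difference was -0.43 (Spearman's rho -0.46), and across all 36813 it was -0.02 (rho 0.04). Points of this relation share birds, and many share a gene. Of the 57, 51 had a mean signal above the lower quartile of the array, 7.88, and the 6 others had a median difference of 0.01.

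**Figure D2:**
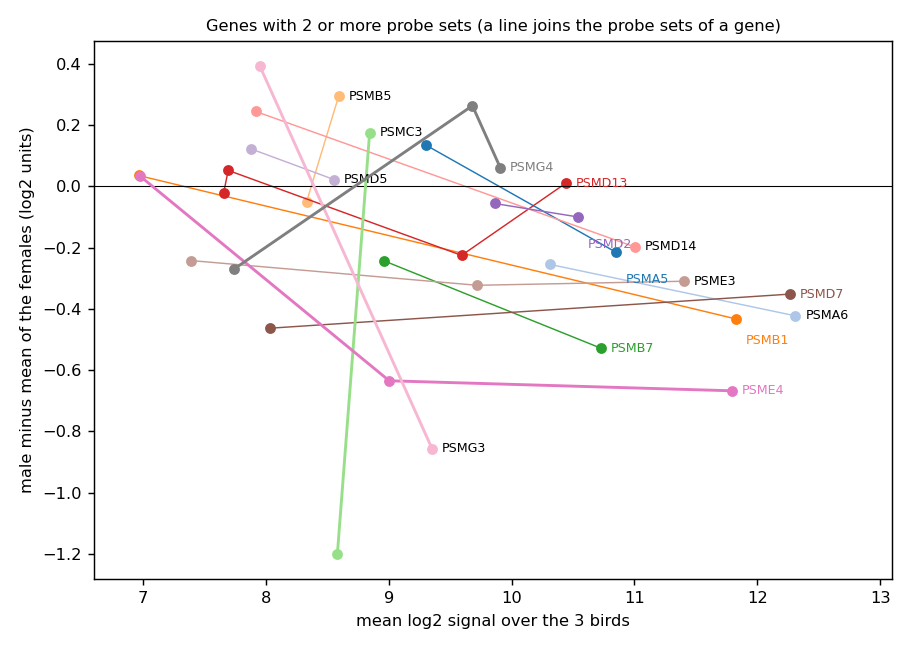
Male minus the mean of the females (vertical axis, log2 units) against the mean log2 signal of the 3 birds (horizontal axis) for the 15 proteasome genes with several probe sets, with 1 point per probe set and a line joining those of a gene. PSMC3, PSME4, PSMG3 and PSMG4 (thick lines) cross 0 between probe sets that lie over 0.5 apart. PSMA5, PSMB1, PSMB5, PSMD13 and PSMD14 cross 0 over a smaller range, while PSME3 and PSMD7 stay below it.

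The females differed from each other as well. On the brightest probe set, bird 3 was above bird 1 for 28 of 37 genes (75.7%), against 50.9% of all genes. The median was 0.16 over the 37 and 0.01 over all genes. On the 20 probe sets that were not the brightest of their gene, bird 3 was above bird 1 on 9, with a median of -0.02. Over all probe sets of these genes bird 3 was the highest of the 3 birds on 28 of 57 (49.1%), against 30.9% of all. By class, bird 3 was above bird 1 for 6 of 7 alpha genes (median 0.32) and 2 of 6 beta genes (median -0.07). For the PSMC genes this was 5 of 6 (median 0.23), or 4 of 5 (median 0.30) without PSMC3IP. Among the other 19S genes it was 10 of 11 (median 0.36), and among the activators and assembly factors 5 of 7 (median 0.09). The difference between classes was not tested. In PSMA2, PSMD6 and PSMD1 the females lay 0.95, 0.81 and 0.70 apart, and the male was nearer to bird 1 than to bird 3. The male was the lowest and bird 3 the highest for 21 of the 37 genes (56.8%), against 16.7% of all genes.

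**Figure D3:**
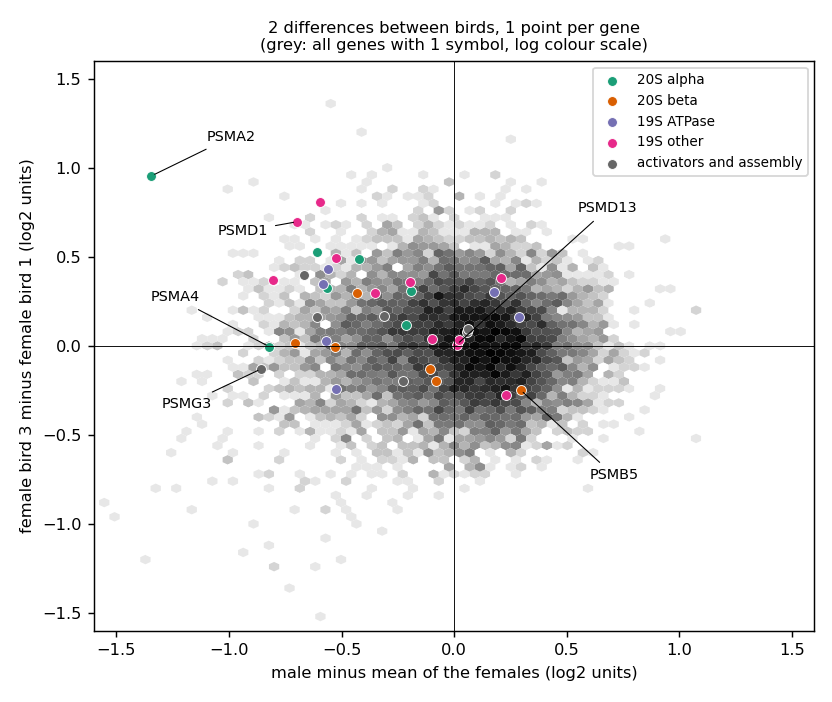
Each proteasome gene on its brightest probe set, placed by the difference of the male from the mean of the females (horizontal axis) and by that of female 3 from female 1 (vertical axis), both in log2 units, over all genes with 1 symbol in grey (98 genes lie outside the plotted range of 1.6 log2 units). The coloured points, 1 colour per class, lie mostly left of 0, and those of the alpha ring and the 19S cap mostly above it.

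The spread between the birds was larger for the well-read proteasome genes than for genes at large. The median SD over the 3 birds was 0.21 for the 57 probe sets and 0.19 for all, and on the brightest probe set of each gene it was 0.29 for the 37 genes and 0.20 for all genes. In the brightest 25% of the array it was 0.29 for the 31 proteasome probe sets there and 0.22 for all. The largest SDs were those of PSMA2 (0.91), the dimmer probe set of PSMC3 (0.70) and PSMD1 (0.53), and the smallest those of PSMD13, PSMD5 and PSMG1, given above. By class the median SD on the brightest probe set was 0.36 for the alpha ring and 0.25 for the beta ring. For the ATPases it was 0.33, with PSMC3IP or without it. The other 19S genes had 0.23, and the activators and assembly factors 0.20.

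**Figure D4:**
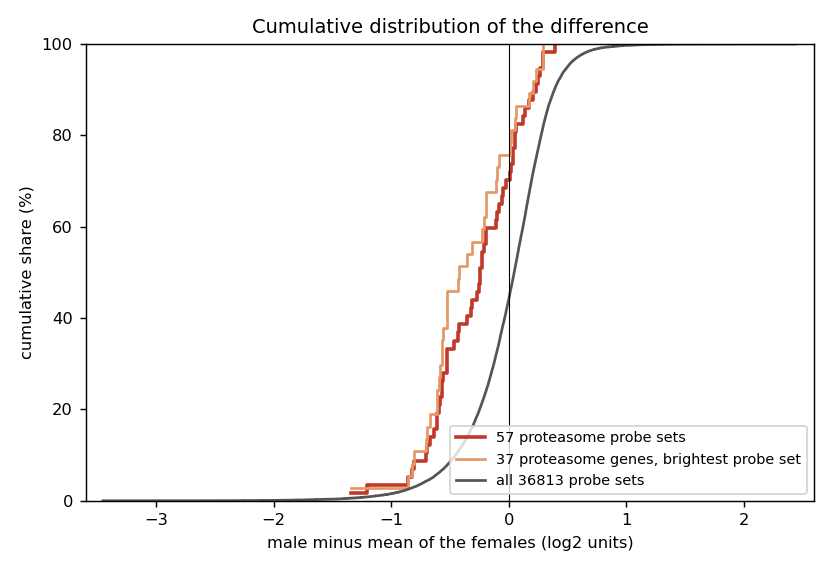
Cumulative share of probe sets or genes (vertical axis, %) against the difference of the male from the mean of the females (horizontal axis, log2 units), for the 57 proteasome probe sets, the 37 genes on their brightest probe set, and all 36813 probe sets. The median is -0.24 for the proteasome probe sets, -0.42 for the proteasome genes and 0.05 for all probe sets.

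Genes that act beside the proteasome were read on their brightest probe set, in lists grouped by role, and none of them passed the limma test after adjustment over all probe sets. Over all 12913 genes the male was below both females in 4194 (32.5%) and above both in 5359, with a median of 0.04. These values are the background for each list here and for the cell type markers below. Of 17 measured partners of the complex outside the PSM genes, the male was below both females in 9 and above both in 7, with a median of -0.06. The shuttle factor UBQLN1, which carries tagged proteins to the cap, read 10.28 in the male and 11.46 and 11.29 in females 1 and 3, and UCHL5, a deubiquitinating enzyme of the cap, read 9.61 in the male and 10.19 and 10.37 in the females. On the other side, UBQLN4 read 12.67 in the male and 11.99 and 11.94 in the females, and ZFAND5, a cap-binding protein that speeds degradation in mammals, read 13.41 in the male and 12.63 and 13.12 in the females. The partners were thus divided between a low and a high male.
Of 11 genes of the segregase p97 and its cofactors, the male was lowest in 5, with a median of -0.17. UBE4B (-0.86) and DERL1 (-0.37) lay lowest in the male against the females, and VCP, p97 itself, and NPLOC4 highest (0.53 and 0.24). VCP read 13.93 in the male and 12.95 and 13.87 in females 1 and 3, so that bird 1 was the bird apart. Among 4 genes for ubiquitin or for activating enzymes of ubiquitin and ubiquitin-like proteins, the male was lowest in 2 and highest in 2. The differences ran from -0.34 for UBA6 and -0.21 for the fusion gene RPS27A to 0.12 for UBA7 and 0.51 for UBA3. Of 10 ubiquitin ligases listed for muscle, not all of them particular to it, the male was lowest in 4 and highest in 5, with a median of 0.12. FBXO32, the ligase atrogin-1 of muscle atrophy, read 12.42 in the male and 12.80 and 12.54 in the females (-0.26), FBXO40 had a difference of -0.40, and ITCH and FBXO30 had 0.31 and 0.28.

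Of 15 measured genes for factors that control proteasome genes in mammals, or process those factors, the male was below both females in 10, against the 32.5% of all genes given above. The median was -0.50, beside 0.04 over all genes. The largest differences were those of the small Maf genes MAFF (-1.41) and MAFK (-1.03), whose proteins pair with the NFE2 factors on DNA, and on the other side those of the CCAAT-binding subunit NFYA (0.46) and of the protease DDI2 (0.21), which activates NFE2L1. MAFK read 11.21 in the male and 12.23 and 12.24 in females 1 and 3. NFE2L1, chosen for mention after its values were seen, read 12.42 in the male and 12.91 and 13.30 in the females (difference -0.69, limma standard error 0.26, adjusted p = 0.431). Bird 3 was the highest for NFE2L1, whereas for NFE2L2, also chosen after its values were seen, bird 1 was, with 9.08 in the male and 10.27 and 9.68 in the females. The part of these factors in the proteasome values was not tested.
Chaperone genes had a low male as well. In 14 of 19 measured heat shock and chaperone genes the male was below both females, against 32.5% of all genes. In 0 of the 19 it was above both, against 5359 of 12913 genes. The median was -0.50, from -1.71 for DNAJB6 and -1.66 for HSP90AA1 to -0.0091 for HSP90B1 and 0.10 for HSPH1. HSP90AA1, a cytosolic HSP90, read 10.80 in the male and 12.45 and 12.48 in females 1 and 3. The median of bird 3 minus bird 1 was 0.01 over these genes and 0.01 over the transcription factor list, beside 0.16 over the proteasome genes.

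A biopsy holds several cell types, and fewer cells of a type and less RNA per cell cannot be told apart in it. Of 7 measured erythrocyte markers, a cell that keeps its nucleus in birds, the male was below both females in 3, the globin genes HBAD, HBA1 and HBE, and above both in 2, with a median of -0.35. Their summed linear signal was 55015 in the male and 82553 and 71143 in females 1 and 3, so it was lowest in the male but higher in bird 1 than in bird 3. This sum comes mostly from these 3 globin genes and says little of the other markers. Their part in the low proteasome values of the male was not tested. Of 9 skeletal muscle markers the male was lowest in 1 and highest in 3 (median 0.06), with a summed signal of 132941 in the male and 123423 and 132562 in the females. The muscle sum includes ACTA1, which has the same value, 15.27, in each bird. Of 9 leukocyte markers the male was lowest in 0 and highest in 6 (median 0.19), with a summed signal of 8336 in the male and 6541 and 8322 in the females. The 7 fibroblast, 5 endothelial and 4 adipocyte markers had medians of -0.20, 0.01 and 0.02, with the male lowest in 2, 2 and 1 of them. The summed signal of the fibroblast markers was 6706 in the male and 10141 and 6088 in the females. That of the endothelial markers was 3368 in the male and 4249 and 3992 in the females, and that of the adipocyte markers 2854 in the male and 2278 and 3383 in the females. The part of these cell types in the proteasome values was not tested. Because males carry a pair of Z chromosomes in birds, each symbol was looked up in the RefSeq gene table of a king penguin genome (bAptPat1.pri.cur). All 37 symbols were found, 36 of them on a named chromosome, and 0 on chromosome Z.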

How the data were processed

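RNA of the pectoralis of 3 AA penguins was hybridized to Affymetrix Chicken Genome arrays. By the methods of the study, the authors summarised each probe set with MaxRS, a method for hybridization across species, and deposited log2 signals after quantile normalization, but how many arrays entered that step is not stated. Limma is also listed, with no version, in the submitters' processing notes. These log2 values were used as deposited. Genes were named from the platform annotation, where 26041 probe sets have 1 symbol, 170 have several and 10602 have none. A gene's brightest probe set is that with the highest mean over the birds. Male minus females was fitted on all 36813 probe sets with limma (version 3.58.1, R 4.3.3, lmFit and eBayes, 7.35 prior and 1 residual degrees of freedom) and adjusted by the Benjamini-Hochberg method at 0.05. The step was also run on simulated data in which all birds varied alike. Apart from a run without a shift, the shifts put in were larger than the difference of any proteasome gene. Such data cannot show how the fit behaves if the lone male varies otherwise than the females. The small number of arrays limits the precision. Markers and other lists are described by counts and medians.

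Members and lists were chosen with earlier results of these data known. Values in each bird were to be given for the 3 genes with the largest and the gene with the smallest difference in each class, the 3 highest and 3 lowest SDs, the catalytic subunits, genes whose probe sets differ in sign by over 0.5, and the 2 genes at each end of a list. Other proteasome genes complete their class and were chosen after their values were seen. Alternatives covered scaling, dim probe sets, probe set type, the value per gene, the variance model and leaving out each bird. A planned motif search in promoters was not run, since no promoter sequence was used here.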

Additional observations from a re-analysis of the deposited data

How the results depend on the processing

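Of 128 values under another setting, 124 kept their direction or call within the limits set. The limits were a move of less than the median SD over the birds, 0.21, for medians of differences. For counts, shares and SDs the limit was a move by at most 1.5 times. Many of the 128 could hardly move. Leaving out PSMC3IP cannot change the classes without it, and rescaling arrays that were already normalized alike changes little. Relative to their size some medians moved far, as the median over the 57 probe sets did, to -0.42 on the brightest probe set of each gene in place of -0.24. Without the probe sets whose names end in _s_at or _x_at, the median difference of the activators and assembly factors was 0.033 in place of -0.26. The male was then lowest in 4 of the other 19S genes in place of 7 of 11, with PSMD3, PSMD9 and PSMD12 no longer read. The count of proteasome probe sets past the limma test was 0 under each scaling, filter and variance model, and 12 by the unadjusted p. Over all probe sets some passed with an intensity trend, without the _s_at and _x_at probe sets, and with a robust prior. Leaving out bird 1 or bird 3 gave medians from -0.27 to -0.20 over the 57 probe sets. For the 9 alpha probe sets, whose median over the 3 birds was -0.42, these were from -0.67 to -0.33. Without 1 female no residual degree of freedom is left, and without the male no difference by sex, so no test was run. No paired analysis was possible because the 3 birds are 1 group. The few arrays limit small differences such as that of PSMD13.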
